A study of Mus musculus with 14 samples.

Results

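Gene expression in the pregnant mouse uterus was compared between mice given PC61 and mice given PBS. The comparison covered all detected genes that had a named probe, with each PC61 array shown on its own. PC61 is a rat antibody that binds CD25, a chain of the receptor for interleukin-2, and is given to mice to remove regulatory T cells. PBS, phosphate-buffered saline, was given in its place to the control mice. The comparison used 9 of the 14 samples in the study: 4 labelled PC61 and 5 labelled PBS, each uterus RNA from pregnant C57BL/6 mice of 8 weeks, taken 12 days after fertilization. The other 5 samples, from non-pregnant mice of the same strain and age, entered the model and give a reference level. Each sample was hybridised to 1 Illumina mouse BeadChip array. The labels number the samples of a group but do not say that each came from a separate animal, so a p-value reflects no more than how these samples vary, and that variation may be technical. Of 45281 probes, 20967 were kept. Of those kept, 5618 had no single gene symbol here and were left out, and the rest represented 10478 genes.

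At this stage the mouse implantation site holds several tissues of different origin. The placenta, built by trophoblast cells, has an inner labyrinth for exchange and an outer layer of spongiotrophoblast and giant cells. That layer secretes prolactin-like hormones and pregnancy-specific glycoproteins. The yolk sac is a membrane apart from the placenta and makes serum proteins. Around these lie the decidua, formed from uterine stroma and rich in granzyme-bearing natural killer cells, and the smooth muscle of the myometrium. Regulatory T cells restrain the mother's immune response to paternal antigens, and removing them is a common way to study maternal tolerance.

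Levels are given as log2 normalised intensity, on which a difference of 1 is a 2-fold difference in signal. A probe could be told from background down to a level between 5.00 and 5.55, depending on the array, and readings near 4.3 are the bottom of the scale. Median raw intensity lay between 93.0 and 140 on the 14 arrays, with 16607 to 19729 probes detected at p under 0.01. Of the markers set for uterus, Esr1 was detected on all 9 pregnant arrays, and Pgr, the progesterone receptor, on 4 of 5 PBS and 3 of 4 PC61 arrays. The others were detected on fewer PBS arrays: Hoxa10 on 2 of 5 PBS and 2 of 4 PC61 arrays, and Hoxa11 on 2 of 5 PBS and 4 of 4 PC61 arrays. Myh11, set for myometrium, was detected on all 9. The same samples also carried embryonic transcripts: Dcx, a microtubule protein of young neurons, read 9.31 ± 0.36 (SD, n = 5) in PBS samples against 4.50 ± 0.11 (SD, n = 5) in non-pregnant uterus. Since whole tissue was measured, fewer cells of a type and less RNA per cell cannot be told apart in any of the results.

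The 4 PC61 arrays did not form a group. Across all genes, the correlation between PC61 arrays 2 and 3 was 0.980, that of array 1 with them 0.877 and 0.868, and that of array 4 with the 5 PBS arrays 0.968 to 0.989. Correlations among the PBS arrays themselves were 0.971 to 0.987. The median gene had an SD of 0.41 over the PC61 arrays and 0.24 over the PBS arrays. Most results below are therefore given array by array, and medians over most tissue and programme lists are given with each PC61 array left out. Housekeeping lists are given without such left-out medians, and some of them and some symbol families by their median only.

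Counting genes that lay more than 1 log2 unit outside the range of the 5 PBS arrays showed the same split. PC61 array 1 had 100 genes above and 533 below, which is 0.954% and 5.09% of all genes. Array 2 had 639 above and 571 below, 6.10% and 5.45%. Array 3 had 726 above and 600 below, 6.93% and 5.73%. Array 4 had 1 above and 33 below, 0.00954% and 0.315%. When each PBS array was set against the other 4 in the same way, it had 0 to 73 genes above and 0 to 10 below, and the 73 belonged to PBS array 5. Against any 4 PBS arrays, PC61 array 4 had 1 to 102 genes above and 34 to 50 below. Its count below was thus higher than that of any PBS array, and its count above overlapped theirs.

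**Figure D1:**
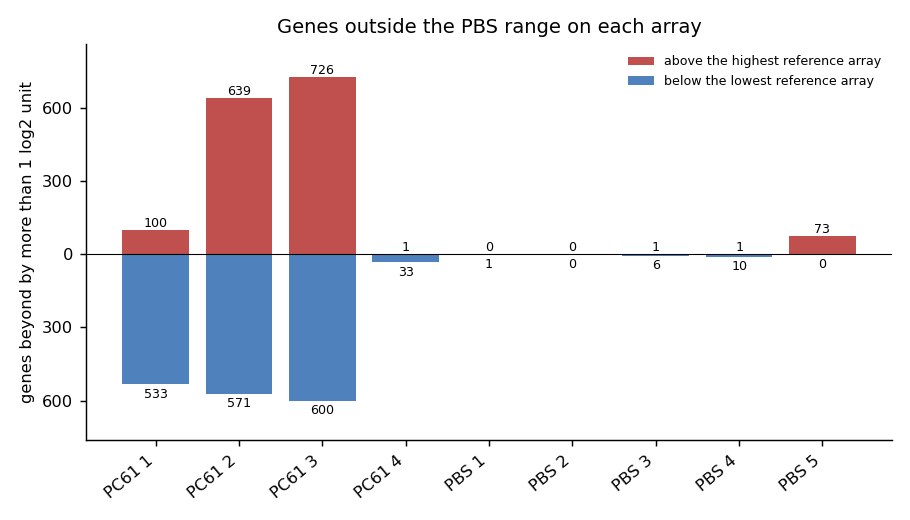
Number of genes (vertical axis) more than 1 log2 unit above the highest reference array (upwards) or below the lowest (downwards) for each array on the horizontal axis. The reference is all 5 PBS arrays for a PC61 array and the other 4 for a PBS array. PC61 arrays 1 to 3 have 533 to 600 genes below, PC61 array 4 has 33, and arrays 2 and 3 have 639 and 726 above.

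Of the 10478 genes, 8675 stayed within 1 log2 unit of the PBS range on all 4 PC61 arrays and 1803 left it on at least 1. No gene left it in the same direction on all 4. Arrays 2 and 3 were both above for 525 genes and both below for 448, and were in opposite directions for 0. Array 1 joined arrays 2 and 3 below for 190 genes and above for 42. In 67 genes array 1 was below while arrays 2 and 3 were above, and 14 genes were the reverse.

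With all 4 arrays taken as 1 group, 0 of 10478 genes (0%) passed an adjusted p of 0.05 in limma. The lowest adjusted p was 0.154, or 0.384 when only the 9 pregnant arrays entered the fit. The fit takes 1 spread for all groups, although the PC61 arrays varied more than the PBS arrays. For genes that varied most among the PC61 arrays, the SE and p-values printed here are therefore too small. Counting genes with an unadjusted p under 0.05 gave 767 genes higher (7.32%) and 854 lower (8.15%) in PC61. Without PC61 array 4 the count past an adjusted p of 0.05 was 1529, and without array 1 it was 2. In 106 genes (1.01%) all 4 PC61 arrays lay above all 5 PBS arrays, and in 84 (0.802%) all 4 lay below. With the arrays scaled to equal medians in place of quantiles, this split became 18 higher and 1543 lower, and 303 genes, all lower, passed the adjusted p. Some genes separate fully by chance when 4 arrays are set against 5. That share was not estimated, so the counts of separated genes are a description. The 10 genes with the widest gap in each direction had adjusted p of 0.154 to 0.292.

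Among the genes with the widest gap upwards was Adap1, which encodes a GTPase-activating protein for small Arf proteins. It read 9.11, 9.84, 9.83 and 9.33 on PC61 arrays 1 to 4 and 8.70, 8.74, 7.92, 8.40 and 8.68 on PBS arrays 1 to 5, a difference of 1.04 ± 0.29 (SE) with an adjusted p of 0.156. All 4 PC61 values were above the highest PBS value, and arrays 2 and 3 were the furthest. Itgb1, the beta 1 chain shared by many matrix-binding integrins, read 8.18, 8.72, 8.83 and 8.25 against 6.99, 7.70, 7.87, 7.96 and 7.67 in PBS, a difference of 0.85 ± 0.23 (SE; adjusted p 0.154). Adar, which edits adenosine to inosine in double-stranded RNA, read 8.22, 8.27, 8.16 and 8.0 against 7.41, 7.77, 7.36, 7.57 and 7.77 (0.59 ± 0.15, SE; adjusted p 0.154). For Adar the PC61 values lay close together, with array 4 nearest to PBS. Fcer2a, the low-affinity IgE receptor CD23, was detected on all 4 PC61 arrays (5.52, 6.39, 5.81 and 5.28) and on none of the PBS arrays, so its level was at least 1.56-fold higher. Cul9, a cullin of ubiquitin ligases, read 5.62, 5.48, 5.21 and 4.97 on the PC61 arrays. It was detected on 2 PC61 arrays and 0 PBS arrays, so no bound on its difference is given. The other 5 were Gabrg3, a GABA receptor subunit, Sec14l1, Tspoap1, Cc2d1b and Zcchc9, with differences of 0.51 to 0.87.

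Downwards, Unc5b, a netrin receptor of endothelial cells, read 7.49, 6.71, 7.64 and 7.57 in PC61 and 8.74, 8.68, 9.14, 8.97 and 8.13 in PBS, a difference of -1.38 ± 0.27 (SE; adjusted p 0.154). Its value was lowest on array 2, and the other 3 PC61 arrays lay close together below the PBS range. Hba-x, the zeta globin of primitive red cells, read 14.11, 12.22, 11.34 and 14.06 against 14.50, 14.60, 14.64, 14.36 and 14.48, a difference of -1.58 ± 0.44 (SE; adjusted p 0.156). Arrays 1 and 4 lay just below the lowest PBS value and arrays 2 and 3 well below it. Ankrd1, an ankyrin repeat protein of heart muscle, read 6.64, 5.60, 6.46 and 6.76 against 7.17, 7.39, 7.36, 7.50 and 7.28 (-0.97 ± 0.20, SE; adjusted p 0.154). Foxf1, a forkhead factor of mesenchyme beneath epithelia, read 5.48, 4.83, 5.0 and 5.25 against 6.47, 5.69, 6.86, 5.86 and 5.67 (-0.97 ± 0.25, SE; adjusted p 0.154). Lhx8, a LIM homeobox factor, was detected on all 5 PBS arrays and on 0 PC61 arrays, at least 1.20-fold lower. The remaining genes were Nkain1, Doxl2, Pdap1, Mpzl1 and Dcp2, the last a decapping enzyme of messenger RNA, with differences of -1.18 to -0.49. These 20 genes were chosen by their gap, so the size of the gap is a description.

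The rest of the description follows gene lists of known tissues and processes. For each list, the level on an array is the median over its members of the log2 difference from the PBS mean of the same gene. The background for the direction of a list is that 51.5% of all genes were higher and 48.5% lower in PC61, with a median difference of 0.01. When the arrays were scaled to equal medians in place of quantiles, that median became -0.30, and the decidual, endothelial, cytosolic ribosomal and endoplasmic reticulum lists turned from above to below 0. The background for counts outside the PBS range on 1 array is the percentage given above for that array. For a level on 1 array it is the median of all genes, which was 0.10, -0.0025, -0.03 and -0.03 on PC61 arrays 1 to 4.

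**Figure D2:**
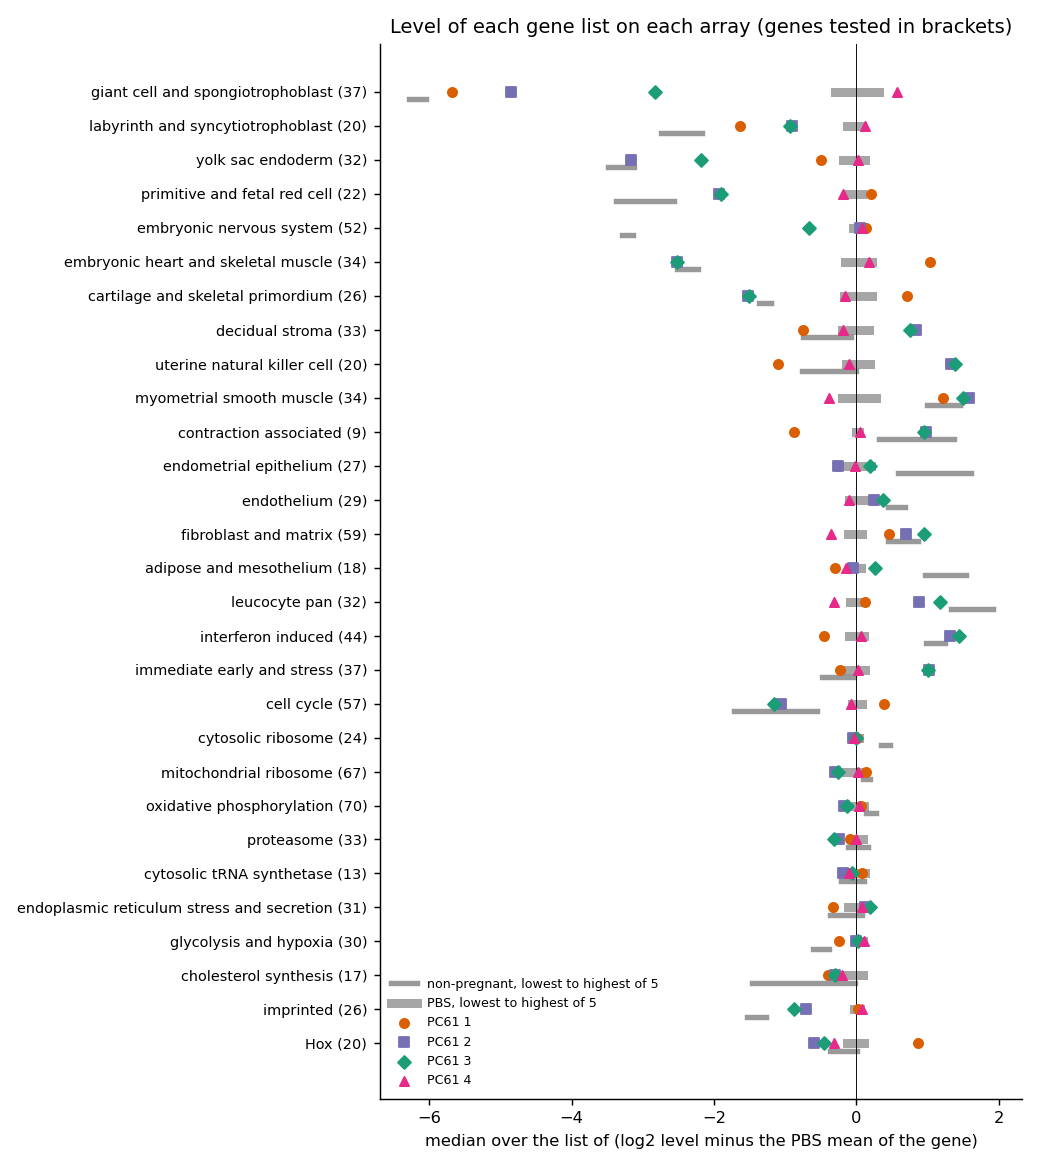
Median level of each gene list relative to the PBS mean (horizontal axis, log2) on each PC61 array (coloured symbols), with the span of the 5 PBS arrays (dark grey bar) and of the 5 non-pregnant arrays (lighter bar, just below). Array 4 lies within 0.6 of 0 for each list, arrays 2 and 3 lie close together for most lists, and array 1 departs from them for muscle, cartilage, Hox, decidua, natural killer and interferon lists.

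The trophoblast hormone layer had the largest differences. Of 37 measured giant cell and spongiotrophoblast genes, 36 were lower in PC61 and 1, Eomes, was higher, with a median of -3.25 (-2.25, -2.62, -3.45 and -4.76 without arrays 1, 2, 3 and 4 in turn). The list stood at -5.68, -4.86, -2.83 and 0.57 on arrays 1 to 4, where the PBS arrays ran from -0.29 to 0.31 and the non-pregnant arrays from -6.29 to -6.04. Array 1 was nearly at the non-pregnant level, array 3 was in between and array 4 was slightly above PBS. More than 1 unit below the PBS range were 34, 33 and 34 genes on arrays 1, 2 and 3 and 0 on array 4. At an unadjusted p under 0.05 in limma, 33 of the 37 were lower, where 8.15% of all genes were. That count is a description only. The members shared their array pattern, the list was written with earlier results known, and the p-values are too small for genes that vary this much. On all PBS arrays 35 of the 37 were detected, and on all PC61 arrays 4 were.

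Psg21, a secreted pregnancy-specific glycoprotein, read 4.46, 4.39, 11.35 and 14.60 on PC61 arrays 1 to 4 and 14.03, 14.07, 13.97, 13.87 and 14.23 on the PBS arrays. It was at the bottom of the scale on arrays 1 and 2, reduced on array 3 and above every PBS value on array 4, so that the difference of -5.33 ± 1.57 (SE; adjusted p 0.167) averaged unlike arrays. Ctsj, a placental cathepsin protease, read 4.42, 8.84, 12.80 and 14.70 against 14.38, 14.59, 14.33, 14.41 and 14.10, which put array 1 at the bottom of the scale, array 2 in the middle, array 3 below PBS and array 4 above every PBS value. Ceacam11, of the carcinoembryonic antigen family, read 4.26, 4.42, 11.44 and 14.58, against 14.06 ± 0.23 (SD, n = 5) in PBS. Prl2b1, a placental prolactin, read 4.44, 6.87, 11.15 and 14.41 against 13.74 ± 0.33. Serpinb9g, one of several placental serine protease inhibitors, read 4.27, 5.95, 9.34 and 12.80 against 12.52 ± 0.42. In each of these array 3 kept an intermediate level. Ldoc1, which is derived from a retrotransposon and acts in placental endocrine cells, read 5.60, 4.80, 7.37 and 12.58 against 12.48 ± 0.18, a difference of -4.89 ± 1.09 (SE; adjusted p 0.154).

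The labyrinth list was less uniform. Of 20 genes 15 were lower, with a median of -0.78 (-0.56, -0.59, -0.71 and -1.14 without arrays 1, 2, 3 and 4 in turn), and the 5 higher ones were Mxd1, Hsd11b2, Cyp11a1, Spint1 and Ly6e. Its level was -1.64, -0.90, -0.94 and 0.12 on arrays 1 to 4, against -0.13 to 0.08 in PBS. Synb, the syncytin that fuses syncytiotrophoblast, read 4.33, 4.43, 4.53 and 8.64 and was detected on 1 of 4 PC61 arrays, against 8.51, 7.99, 8.68, 8.48 and 8.16 in PBS. It was therefore not detected on 3 arrays and at the PBS level on the other, with no intermediate value on array 3. Dlx3, a homeobox factor needed for the labyrinth, read 6.37, 5.09, 5.20 and 9.90 against 9.78 ± 0.29 (SD, n = 5), a difference of -3.14 ± 0.72 (SE; adjusted p 0.154). Tfap2c, a trophoblast transcription factor, read 6.67, 7.92, 9.07 and 12.46 against 12.06 ± 0.13.

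**Figure D3:**
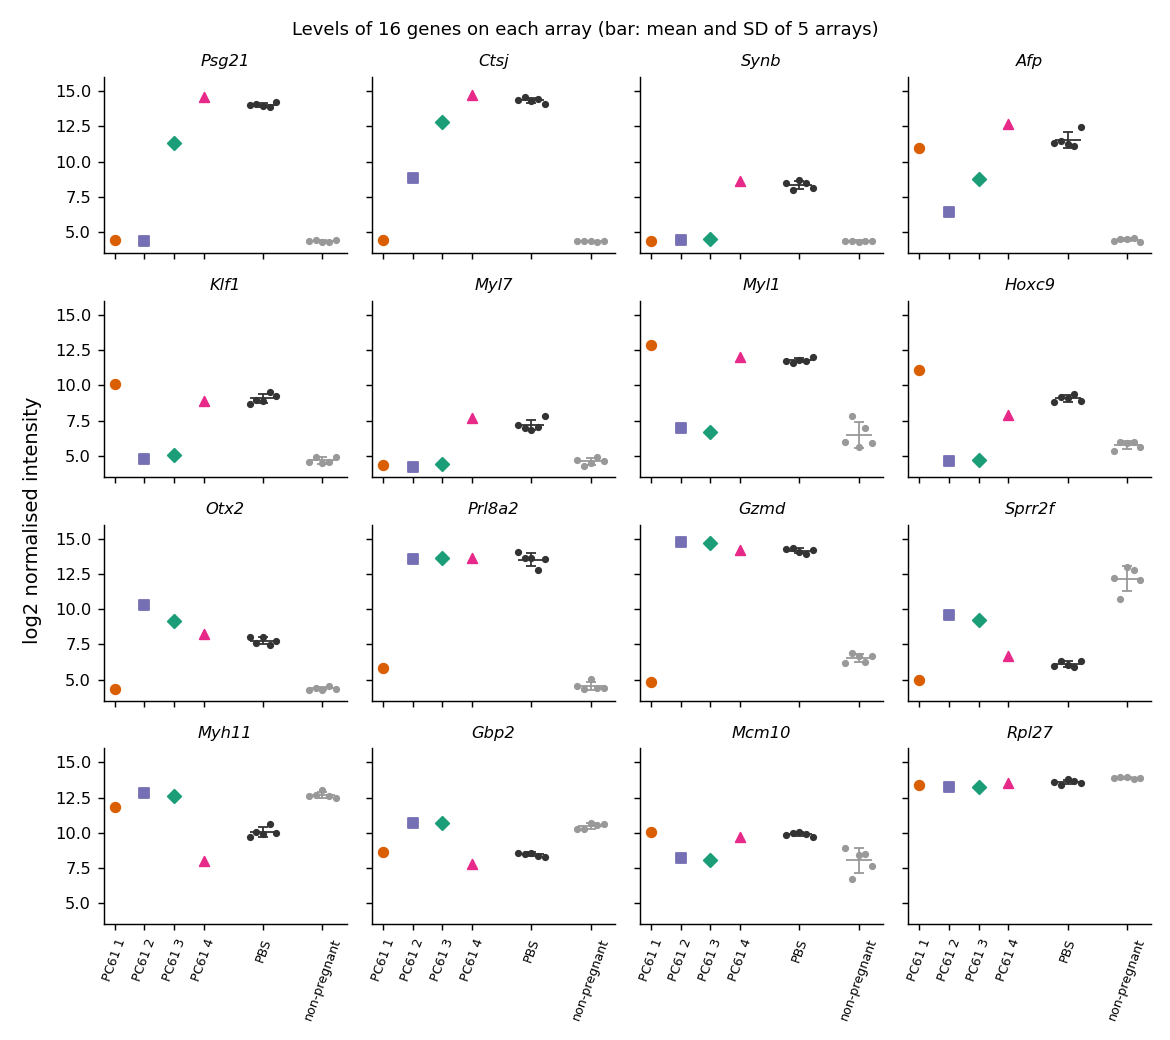
Levels (vertical axis, log2 normalised intensity) of 16 genes on the 4 PC61 arrays (coloured symbols), the 5 PBS arrays (black) and the 5 non-pregnant arrays (grey), with the mean and SD of the last 2 groups. Psg21 is near the bottom of the scale on PC61 arrays 1 and 2 only, Gzmd on array 1 only, Prl8a2 is low on array 1 only, Myl1 is low on arrays 2 and 3 only, and Rpl27 is level on every array.

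Yolk sac and fetal liver proteins showed a different order of the arrays. Of 32 genes 28 were lower, with a median of -1.37 (-1.68, -0.77, -1.13 and -1.89 without arrays 1, 2, 3 and 4 in turn); Serpina1b, Serpinf1, Cyp26a1 and Entpd2 were higher. The level was -0.50, -3.16, -2.18 and 0.02, against -0.19 to 0.12 in PBS. Here array 2 was lowest, and array 1 was below PBS by less than arrays 2 and 3. Apoa2, a lipoprotein component, read 11.29, 6.09, 8.90 and 12.63 against 12.72, 12.38, 12.99, 12.80 and 13.07. Afp, the alpha-fetoprotein, read 11.001, 6.39, 8.74 and 12.66 against 11.34, 11.49, 11.23, 11.08 and 12.47. Amn, part of the receptor that takes up protein in yolk sac endoderm, read 9.59, 8.76, 9.39 and 10.21 against 10.31 ± 0.25 (SD, n = 5), a much narrower spread. Cubn, its partner in that receptor, read 4.79, 4.25, 4.49 and 8.38 against 6.99 ± 0.55 and was also low on array 1.

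Primitive and fetal red cell genes were much lower on arrays 2 and 3, slightly below the PBS arrays on array 4 and above them on array 1. The list stood at 0.20, -1.93, -1.90 and -0.18 on arrays 1 to 4, against -0.12 to 0.08 in PBS and -3.38 to -2.56 in non-pregnant uterus, and 21 of 22 genes were lower, all but Tmod1. The median of -0.83 became -1.28, -0.54, -0.60 and -1.11 without arrays 1, 2, 3 and 4 in turn. Klf1, the master transcription factor of red cells, read 10.09, 4.77, 5.04 and 8.90 against 8.69, 8.95, 8.92, 9.54 and 9.26, which put arrays 2 and 3 at the bottom of the scale and array 1 above every PBS value. Nfe2, another erythroid factor, read 9.79, 6.06, 5.51 and 9.11 against 9.39 ± 0.24 (SD, n = 5). Slc4a1, the anion exchanger of the red cell membrane, read 13.86, 10.31, 9.54 and 13.25 against 13.43 ± 0.13. Among the globins, Hbb-bh1, an embryonic beta-like chain, read 13.07, 10.90, 9.96 and 13.15 against 13.52 ± 0.30, while Hbb-y, another embryonic beta-like chain with signals near the top of the scale, read 14.86, 14.71, 13.91 and 14.88 against 14.85, 14.67, 14.75, 14.89 and 14.77.

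Striated muscle genes split by muscle type and by array. The list of 34 heart and skeletal muscle genes stood at 1.03, -2.52, -2.53 and 0.18, against -0.16 to 0.21 in PBS and -2.52 to -2.23 in non-pregnant uterus. Array 1 was above PBS, and arrays 2 and 3 were at the non-pregnant level. On array 1, 7 genes were more than 1 unit above the PBS range and 6 below it; on arrays 2 and 3, 22 and 21 were below. The median of -1.13 became -1.60, -0.61, -0.65 and -1.51 without arrays 1, 2, 3 and 4 in turn.

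The heart genes were low on all 3 of arrays 1 to 3. Myl2, the regulatory light chain of the ventricle, read 4.25, 4.45, 4.53 and 11.28 against 10.32, 10.83, 10.56, 10.84 and 10.75, a difference of -4.53 ± 1.06 (SE; adjusted p 0.154). Myl3, the essential light chain of the ventricle, read 4.91, 4.27, 4.35 and 10.19 against 9.40 ± 0.32 (SD, n = 5). Nppa, the atrial natriuretic peptide, read 6.37, 6.77, 6.49 and 9.84 against 9.59 ± 0.11. Myl7, the atrial light chain, read 4.36, 4.23, 4.43 and 7.70 against 7.18 ± 0.38, and Myh6, the alpha myosin heavy chain of heart, read 4.72, 4.38, 4.57 and 6.84 against 6.45 ± 0.15. Array 4 was at or above the PBS mean for each of these 5.

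The skeletal muscle genes were low on arrays 2 and 3 and high on array 1. Myl1, the fast skeletal light chain, read 12.84, 6.95, 6.72 and 12.04 against 11.76, 11.59, 11.81, 11.75 and 12.03. Mylpf, the fast regulatory light chain, read 10.78, 5.21, 5.16 and 9.84 against 9.27 ± 0.48 (SD, n = 5). Atp2a1, the calcium pump of fast fibres, read 9.96, 4.41, 5.10 and 8.42 against 8.63 ± 0.21. Myog, which drives myoblast differentiation, read 7.84, 4.96, 4.53 and 6.63 against 6.69 ± 0.33. Actc1 is the actin of both embryonic heart and embryonic skeletal muscle, and it followed the skeletal genes at 11.84, 6.50, 6.12 and 11.38 against 11.19 ± 0.19. Tnni2, fast skeletal troponin I, had another pattern, at 10.90, 10.38, 10.99 and 7.61 against 8.62 ± 0.47, with non-pregnant uterus at 10.46 ± 0.51. The division into heart and skeletal genes, and Myl7, Myh6, Mylpf and Atp2a1 within it, were chosen after the values were seen.

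Cartilage and skeletal primordium genes followed the skeletal muscle genes. Their list of 26 stood at 0.72, -1.53, -1.50 and -0.16 against -0.18 to 0.22 in PBS, with 14 and 15 genes below the PBS range on arrays 2 and 3 and 1 on array 1. The median of -0.67 became -1.04, -0.31, -0.40 and -0.96 without arrays 1, 2, 3 and 4 in turn; Acan, Sox5, Twist2, Osr2 and Gdf5 were the 5 higher genes. Col2a1, the main collagen of cartilage, read 12.19, 8.20, 8.26 and 11.17 against 11.31, 10.74, 11.05, 11.09 and 11.22. Meox2, a homeobox factor of somites and limb muscle, read 9.08, 5.05, 5.45 and 8.39 against 8.42 ± 0.17 (SD, n = 5). Gsc, the goosecoid homeobox factor, read 8.90, 4.43, 4.40 and 8.45 against 8.22 ± 0.46. Barx1, a homeobox factor of stomach and facial mesenchyme, did not follow array 1 upwards, at 5.79, 4.32, 4.42 and 6.88 against 6.99 ± 0.32.

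Of the 6 genes furthest above PBS on array 1, 4 were patterning genes of the trunk and limb, Hoxc10, Hoxd12, Tbx4 and Hoxc9. The other 2, Tnni2 and Atp12a, were above the PBS range on arrays 2 and 3 as well. Hox genes specify position along the body axis, higher numbers lying further back. Hoxc10 read 9.48, 5.34, 5.54 and 4.67 on the PC61 arrays against 7.36, 6.81, 7.30, 6.98 and 6.76 in PBS, and Hoxd12 read 8.55, 4.44, 4.67 and 5.09 against 6.62, 6.70, 6.50, 6.69 and 6.40. Both were above every PBS value on array 1 and more than 1 unit below on each of arrays 2, 3 and 4. Hoxc9 read 11.09, 4.64, 4.69 and 7.87 against 9.08 ± 0.23 (SD, n = 5). Tbx4, the T-box factor that initiates the hindlimb, read 9.50, 5.13, 5.15 and 6.75 against 7.45 ± 0.17. Hoxa5, expressed further forward, read 10.91, 6.60, 6.99 and 10.16 against 10.46 ± 0.19. Over the 20 measured Hox genes the level was 0.86, -0.60, -0.46 and -0.31, with 6 more than 1 unit above the PBS range on array 1 and 8 and 7 below it on arrays 2 and 3. The median of -0.03 hid this, with 10 genes higher and 10 lower, and was -0.33, 0.02, -0.08 and -0.02 without arrays 1, 2, 3 and 4 in turn. Non-pregnant uterus also expresses Hox genes, and the list stood there at -0.38 to 0.01.

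As a list, genes of the embryonic nervous system were near the PBS level on arrays 1, 2 and 4 and lower on array 3. The level of 52 genes was 0.13, 0.04, -0.67 and 0.08, against -0.05 to 0.09 in PBS and -3.29 to -3.14 in non-pregnant uterus. Array 3 was below PBS and the other 3 were not. The median was -0.12 (-0.19, -0.18, 0.05 and -0.20 without arrays 1, 2, 3 and 4 in turn), and 4, 5, 5 and 0 genes were below the PBS range on arrays 1 to 4. Stmn2, a tubulin regulator of growing axons, read 11.18, 10.71, 10.48 and 10.93 against 10.91, 10.78, 10.74, 10.56 and 10.65. Dcx read 9.87, 9.20, 8.79 and 9.34 against 9.43, 9.67, 8.73, 9.22 and 9.47.

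A few neural genes differed strongly between arrays. Isl1, a LIM homeobox factor of motor and sensory neurons that heart progenitors use as well, read 11.12, 6.45, 6.24 and 9.66 against 10.34, 10.37, 9.96, 10.15 and 9.97. Sox10, which marks neural crest, read 9.37, 4.55, 4.84 and 7.93 against 8.07 ± 0.19 (SD, n = 5). Both were high on array 1 and low on arrays 2 and 3. Otx2, a homeobox factor of forebrain and midbrain, had the reverse order, at 4.30, 10.29, 9.16 and 8.21 against 8.0, 7.57, 8.06, 7.46 and 7.73. En2, expressed at the midbrain and hindbrain border, read 4.43, 9.04, 8.54 and 7.23 against 6.82 ± 0.20. Otx1, which resembles Otx2 in sequence and site, read 5.74, 10.39, 9.19 and 8.85 against 8.76 ± 0.25. Dlx1, a homeobox factor of forebrain interneurons and of facial mesenchyme, was low on arrays 1 to 3, at 6.55, 5.90, 4.62 and 8.63 against 8.53 ± 0.06, a difference of -2.10 ± 0.53 (SE; adjusted p 0.154). Otx2, En2 and Otx1 were picked after their values were seen.

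Decidual genes divided array 1 from arrays 2 and 3. The 33 genes stood at -0.75, 0.83, 0.75 and -0.18, against -0.21 to 0.17 in PBS and -0.75 to -0.07 in non-pregnant uterus. On array 1, 13 were below the PBS range, and on arrays 2 and 3, 10 and 10 were above it. The median of 0.19 became 0.50, 0.01, 0.02 and 0.33 without arrays 1, 2, 3 and 4 in turn. Prl8a2, the prolactin made by decidua, read 5.85, 13.58, 13.62 and 13.65 against 14.02, 13.65, 13.62, 12.78 and 13.55, so that array 1 was far below and the other 3 were level with PBS. Inhba, the activin A subunit, read 7.55, 12.08, 12.03 and 9.84 against 9.92 ± 0.22 (SD, n = 5). Cyp11a1, which starts steroid synthesis and is used by decidua and giant cells, read 5.11, 9.81, 9.94 and 8.26 against 8.23 ± 0.24. Sct, the peptide hormone secretin, did not follow the list, at 8.61, 9.64, 12.51 and 14.82 against 14.51, 14.89, 14.61, 14.85 and 14.69. It was below every PBS value on arrays 1 to 3, least so on array 3, and its difference was -3.32 ± 0.93 (SE; adjusted p 0.156). Alpl, the tissue non-specific alkaline phosphatase, was also low on arrays 1 to 3, at 5.95, 6.36, 6.47 and 8.28 against 8.33 ± 0.23.

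Natural killer cell genes had the same division. Their 20 genes stood at -1.10, 1.33, 1.38 and -0.10, against -0.15 to 0.19 in PBS. The median of 0.32 became 0.92, -0.02, 0.05 and 0.41 without arrays 1, 2, 3 and 4 in turn. Gzmd, a granzyme of uterine natural killer cells, read 4.84, 14.77, 14.69 and 14.17 against 14.26, 14.33, 14.03, 13.94 and 14.21, below the detection limit on array 1 and above every PBS array on arrays 2 and 3. Gzmg read 4.44, 12.52, 11.84 and 11.999 against 11.32 ± 0.41 (SD, n = 5) and Gzme 4.56, 11.27, 11.24 and 10.25 against 10.14 ± 0.34. Prf1, perforin, read 9.91, 13.04, 12.51 and 11.38 against 11.39 ± 0.15. Ccl5, a chemokine of activated lymphocytes, read 5.99, 7.22, 8.06 and 5.30 against 5.58 ± 0.28, and there array 1 was not below PBS. Granzymes d to g have similar sequences, and probes may share signal between them.

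**Figure D4:**
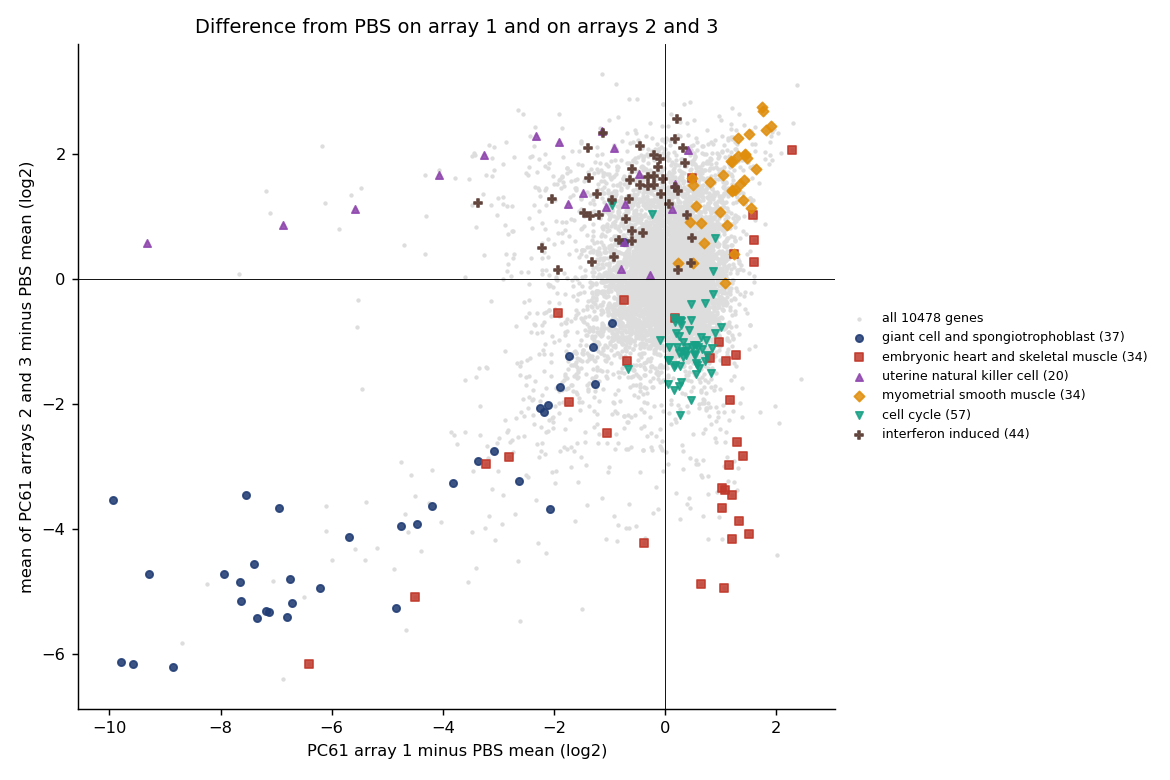
Each point is a gene: its difference from the PBS mean on PC61 array 1 (horizontal axis, log2) and on the mean of PC61 arrays 2 and 3 (vertical axis, log2), with all 10478 genes in grey and 6 lists in colour. Trophoblast genes lie low on both axes, natural killer and interferon genes mostly low or level on array 1 and high on arrays 2 and 3, skeletal muscle and cell cycle genes the reverse, and smooth muscle genes high on both.

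Smooth muscle genes stood above the PBS arrays on arrays 1, 2 and 3 alike, as the matrix list did by smaller amounts. The endothelial list was barely above them, at 0.25, 0.24 and 0.38 on arrays 1 to 3 against a highest PBS level of 0.20. On array 1, 4 of its 29 genes were more than 1 unit below the PBS range and 0 above. The leucocyte list was above the PBS arrays on arrays 2 and 3, and on array 1 it was close to the median of all genes. All 34 measured smooth muscle genes had a higher mean in PC61 (31 of 34 with equal array medians), where 51.5% of all genes did. Their median was 0.90 (0.85, 0.71, 0.70 and 1.36 without arrays 1, 2, 3 and 4 in turn). The level was 1.22, 1.58, 1.50 and -0.39, against -0.20 to 0.27 in PBS and 0.99 to 1.45 in non-pregnant uterus. Array 1 was thus within the non-pregnant range, arrays 2 and 3 were slightly above it, and array 4 was below PBS. At an unadjusted p under 0.05 in limma, 19 were higher, and the lowest adjusted p was 0.154. As members of this list shared their array pattern, that count is a description. Myh11, the smooth muscle myosin heavy chain, read 11.83, 12.85, 12.65 and 8.02 against 9.69, 10.06, 9.94, 10.65 and 9.97, with array 4 below the lowest PBS value. Lmod1, an actin nucleator of smooth muscle, read 7.80, 8.75, 8.88 and 5.80 against 5.82, 5.87, 5.98, 6.63 and 6.01, a difference of 1.75 ± 0.48 (SE; adjusted p 0.156). Jph2, which couples the cell membrane to calcium stores, read 7.19, 7.84, 8.19 and 5.63 against 5.69 ± 0.30 (SD, n = 5). Tagln, transgelin, read 11.10, 11.71, 11.60 and 7.47 against 9.20 ± 0.22. Myh11, Tagln and Pdlim3 were among the 6 genes more than 1 log2 unit above the PBS range on arrays 1 to 3 and as far below it on array 4, the others being Col6a2, Dpt and Prss29.

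The matrix list of 59 genes had a similar but smaller pattern, at 0.46, 0.69, 0.95 and -0.36 against -0.12 to 0.07 in PBS, with 45 genes higher (35, and a median of 0.18, with equal array medians) and a median of 0.44 (0.44, 0.31, 0.27 and 0.70 without arrays 1, 2, 3 and 4 in turn). Col6a2, a collagen VI chain, read 11.42, 12.31, 12.15 and 8.17 against 9.81 ± 0.39 (SD, n = 5). Thbs2, a matricellular thrombospondin, read 8.44, 12.20, 11.76 and 8.87 against 9.02, 9.21, 9.25, 9.40 and 8.62, high on arrays 2 and 3 only. Igfbp6, an IGF-binding protein, read 9.87, 11.91, 11.92 and 7.69 against 9.77 ± 0.31. Among genes of contraction, 7 of 9 were higher, all but Pgf and Slco2a1, with a median of 0.36 (0.51, 0.08, 0.09 and 0.34 without arrays 1, 2, 3 and 4 in turn). Edn1, the vasoconstrictor endothelin 1, read 7.44, 9.55, 9.57 and 7.29 against 7.58 ± 0.26. Rxfp1, the relaxin receptor of uterus, read 6.37, 7.91, 7.89 and 4.43 against 4.84, 5.36, 5.11, 5.33 and 5.17, above on arrays 1 to 3 and below on array 4.

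Endothelial genes differed little as a list. Of 29, 19 were higher (7 with equal array medians), with a median of 0.15 (0.18, 0.09, 0.06 and 0.21 without arrays 1, 2, 3 and 4 in turn) and levels of 0.25, 0.24, 0.38 and -0.11 against -0.10 to 0.20 in PBS. Flt1, the VEGF receptor whose soluble form the placenta secretes, read 9.24, 9.39, 9.89 and 11.63 against 11.39, 11.25, 11.53, 11.41 and 11.35, a difference of -1.35 ± 0.36 (SE; adjusted p 0.154). It was low on arrays 1 to 3. Angpt2, a destabilising ligand of vessels that decidua also makes, read 7.61, 11.36, 11.11 and 11.16 against 11.21 ± 0.12 (SD, n = 5), low on array 1 alone. Cdh5, the cadherin of endothelial junctions, read 8.13, 11.19, 11.19 and 10.83 against 10.95 ± 0.33, and Pecam1 7.76, 9.81, 9.71 and 8.53 against 8.75 ± 0.49, both low on array 1.

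Epithelial genes differed in several directions, and the list of 27 had a median of -0.17 (-0.03, -0.07, -0.20 and -0.21 without arrays 1, 2, 3 and 4 in turn) and levels of -0.26, -0.26, 0.20 and -0.01 against -0.16 to 0.20 in PBS. Simple keratins, which trophoblast shares with uterine epithelium, were lower on arrays 1 to 3: Krt8 read 10.51, 10.76, 11.53 and 13.64 against 13.58, 13.22, 13.46, 13.26 and 13.47, a difference of -1.79 ± 0.46 (SE; adjusted p 0.154). Krt14, a keratin of stratified epithelium, followed the skeletal genes instead, at 10.62, 6.31, 5.98 and 9.55 against 9.56 ± 0.30 (SD, n = 5). The members described next were higher on arrays 2 and 3. Sprr2f, a small proline-rich protein of oestrogen-stimulated uterine epithelium, read 4.98, 9.59, 9.19 and 6.66 against 5.96, 6.31, 6.06, 5.90 and 6.33 and 12.16 ± 0.89 in non-pregnant uterus. Sprr2d read 4.37, 9.60, 9.82 and 6.59 against 7.01 ± 0.24. Aqp5, a water channel of glands, read 10.95, 11.52, 12.47 and 7.89 against 9.54 ± 0.31. Atp12a, a proton and potassium pump, read 8.33, 8.78, 9.35 and 4.57 against 5.96 ± 0.50, and Ltf, lactoferrin, 10.52, 11.49, 10.43 and 7.50 against 8.56 ± 0.75. Aqp5, Atp12a and Ltf were higher on array 1 as well, and lower than every PBS array on array 4.

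Interferon-induced genes were higher on arrays 2 and 3, and array 1 was below PBS. Of 44 genes 39 had a higher mean (29 with equal array medians), the 5 others being Irf9, Ddx58, Isg15, Rsad2 and Ido1, with a median of 0.56 (0.95, 0.36, 0.24 and 0.82 without arrays 1, 2, 3 and 4 in turn). The level was -0.46, 1.32, 1.44 and 0.06, against -0.11 to 0.10 in PBS and 0.98 to 1.25 in non-pregnant uterus. On arrays 2 and 3, 20 and 25 were more than 1 unit above the PBS range, where 6.10% and 6.93% of all genes were. Gbp2, a guanylate-binding protein, read 8.65, 10.72, 10.70 and 7.82 against 8.59, 8.53, 8.59, 8.38 and 8.28. Oas2, an antiviral oligoadenylate synthetase, read 6.60, 9.03, 8.88 and 6.39 against 6.07, 7.09, 6.21, 6.36 and 6.23. Nlrc5, which activates MHC class I genes, read 6.22, 8.01, 7.95 and 6.35 against 5.89 ± 0.24 (SD, n = 5), a difference of 1.24 ± 0.35 (SE; adjusted p 0.157). Psmb8, an immunoproteasome subunit, read 5.95, 9.13, 9.74 and 6.62 against 7.34 ± 0.40, although the 33 proteasome genes as a list had a median of -0.14.

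Since interferon genes were high on the same arrays, their promoters were searched for the letters GAAA, then any 2 bases, then GAAA again, on either strand, a form of the element bound by STAT and IRF factors. The window reached from 250 bases before to 50 bases after a RefSeq start (GRCm38.p6). A match was present in 15 of the 34 members with a promoter entry (44.1%), against 309 of 8466 genes tested that had one (3.65%). Matches within a window may overlap, and a match is a description of the letters, not evidence of a site in use. The 250 bases before the start are shown for the 3 matching members with the largest difference, Gbp2, Gbp7 and Ifit3, and for Isg15, whose mean was lower. Capitals mark the matches, read on the gene's own strand, so that a match on the opposite strand appears as its reverse complement.
Gbp2 (chr3:142620413-142620662, plus strand): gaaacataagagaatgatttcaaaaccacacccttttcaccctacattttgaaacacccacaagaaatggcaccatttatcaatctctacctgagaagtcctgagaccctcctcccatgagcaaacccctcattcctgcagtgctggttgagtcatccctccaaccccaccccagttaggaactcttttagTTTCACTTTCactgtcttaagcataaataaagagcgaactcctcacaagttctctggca
Gbp7 (chr3:142530086-142530335, plus strand): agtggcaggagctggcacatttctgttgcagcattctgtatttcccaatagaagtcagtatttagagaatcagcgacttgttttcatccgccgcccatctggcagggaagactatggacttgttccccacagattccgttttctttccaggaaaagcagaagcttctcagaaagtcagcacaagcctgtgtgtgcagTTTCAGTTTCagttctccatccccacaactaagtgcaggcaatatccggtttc
Ifit3 (chr19:34583279-34583528, plus strand): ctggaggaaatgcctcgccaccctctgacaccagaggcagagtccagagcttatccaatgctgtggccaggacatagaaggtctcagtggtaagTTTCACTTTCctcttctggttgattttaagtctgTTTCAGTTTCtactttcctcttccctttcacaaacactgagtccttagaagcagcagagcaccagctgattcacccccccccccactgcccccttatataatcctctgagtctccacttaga
Isg15 (chr4:156200819-156201068, minus strand): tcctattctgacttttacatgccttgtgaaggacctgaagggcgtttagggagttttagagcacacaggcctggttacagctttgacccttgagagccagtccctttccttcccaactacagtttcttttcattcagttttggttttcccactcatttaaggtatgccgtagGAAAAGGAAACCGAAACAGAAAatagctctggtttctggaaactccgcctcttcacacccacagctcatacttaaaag
The array levels of these genes differed in spite of the shared letters. Gbp7 read 6.72, 8.11, 8.32 and 6.17 against 6.36 ± 0.48 (SD, n = 5), Ifit3 6.32, 9.96, 9.59 and 7.40 against 7.44 ± 0.09, and Isg15 5.87, 8.28, 8.86 and 7.35 against 8.08 ± 0.25. All 4 were lower on array 1 than on arrays 2 and 3. The same search for the CArG box, the element bound by serum response factor at smooth muscle genes, found it in 2 of 30 smooth muscle members (6.67%), Myl9 and Vcl, against 153 of 8466 genes (1.81%). No match says only that these letters are not in this window.

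Leucocyte and stress genes stood highest on arrays 2 and 3. On array 1 the stress list was below the PBS arrays, and the leucocyte list, at 0.13, was close to the median of all genes there, 0.10. On array 4 the leucocyte list was below the PBS arrays. The 32 leucocyte genes stood at 0.13, 0.88, 1.18 and -0.31, against -0.08 to 0.06 in PBS and 1.33 to 1.92 in non-pregnant uterus, with 27 higher (19 with equal array medians) and Foxp3, Csf1r, S100a8, Mpo and Cx3cr1 lower. Their median of 0.37 became 0.58, 0.23, 0.12 and 0.62 without arrays 1, 2, 3 and 4 in turn. H2-Eb1, an MHC class II beta chain, read 8.82, 9.78, 10.28 and 6.47 against 7.26, 7.80, 7.72, 7.96 and 7.41, higher on arrays 1 to 3 and lower on array 4. Saa3, an acute-phase protein of macrophages and epithelia, read 6.80, 8.98, 9.62 and 8.42 against 6.40, 6.63, 6.26, 7.60 and 7.41. Foxp3, the lineage factor of regulatory T cells, read 9.90, 9.05, 9.21 and 9.34 against 9.37, 9.32, 9.48, 9.67 and 9.35, a difference of -0.06 ± 0.17 (SE; adjusted p 0.886). Its PC61 values lay on both sides of the PBS range. Il2ra, which encodes the target of PC61, had no named probe and was not analysed here. Of 37 immediate early and stress genes, the level was -0.23, 1.02, 1.0 and 0.02, against -0.12 to 0.12 in PBS, and the median of 0.35 became 0.65, 0.25, 0.17 and 0.45 without arrays 1, 2, 3 and 4 in turn. Junb, an early response factor, read 7.65, 10.40, 10.16 and 7.95 against 7.99 ± 0.29 (SD, n = 5).

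Cell cycle genes were lower on arrays 2 and 3 and slightly higher on array 1. Of 57 genes 52 had a lower mean, with a median of -0.47 (-0.73, -0.25, -0.23 and -0.59 without arrays 1, 2, 3 and 4 in turn), and levels of 0.38, -1.06, -1.16 and -0.07 against -0.07 to 0.07 in PBS. Mcm10, a replication initiation factor, read 10.07, 8.19, 8.08 and 9.72 against 9.88, 10.01, 10.06, 9.94 and 9.71. Ccne1, cyclin E1, read 7.85, 5.60, 5.23 and 7.71 against 7.59 ± 0.18 (SD, n = 5), and Cdt1, which licenses origins, 10.31, 8.64, 8.51 and 10.15 against 10.26 ± 0.27. The 5 genes with a higher mean were Rrm1, Rrm2, Ccnd1, E2f1 and Cenpf. Rrm1 and Rrm2, the subunits of ribonucleotide reductase, ran against the list, at 9.84, 11.19, 11.05 and 9.82 against 10.07 ± 0.40 and 9.16, 11.16, 11.45 and 9.51 against 10.12 ± 0.26, higher on arrays 2 and 3, with Rrm2 below every PBS value on arrays 1 and 4. Both were picked after their values were seen.

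Imprinted genes, many of them growth regulators of placenta and embryo, stood at 0.02, -0.70, -0.88 and 0.07 against -0.03 to 0.05 in PBS, with 18 of 26 lower and a median of -0.38 (-0.56, -0.25, -0.14 and -0.45 without arrays 1, 2, 3 and 4 in turn). Phlda2, a brake on placental growth, read 8.98, 5.13, 7.12 and 11.92 against 11.42, 11.51, 11.90, 11.65 and 11.48. Peg10, a retrotransposon-derived gene of trophoblast, read 6.54, 4.38, 5.48 and 9.16 against 8.62 ± 0.55 (SD, n = 5). Peg3, active in embryo and placenta, read 11.29, 7.91, 8.34 and 11.86 against 11.45 ± 0.17. Phlda2 and Peg10 were low on arrays 1 to 3, whereas Peg3 stayed near PBS on array 1. Pparg, a nuclear receptor known from fat that the labyrinth also needs, read 5.07, 5.33, 7.34 and 11.09 against 10.65 ± 0.21, while Adipoq, the fat-cell hormone adiponectin, read 4.46, 4.90, 5.78 and 4.35 against 5.03 ± 0.54 and 10.51 ± 1.20 in non-pregnant uterus.

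Ribosomal and respiratory chain lists differed little. The levels of 24 cytosolic ribosomal genes were 0.01, -0.05, 0.00 and -0.03, those of 67 mitochondrial ribosomal genes 0.14, -0.30, -0.26 and 0.03, and those of 70 respiratory chain genes 0.06, -0.17, -0.13 and 0.03. The PBS arrays spanned -0.04 to 0.04, -0.17 to 0.10 and -0.10 to 0.10, so the second and last lists were slightly below PBS on arrays 2 and 3. Their medians were 0.01, -0.07 and -0.05. In the respiratory list the gene with the largest difference was Cox6a2, the isoform of heart and skeletal muscle, at 7.04, 4.40, 4.78 and 7.20 against 7.28 ± 0.50 (SD, n = 5). Glycolysis and hypoxia genes had a median of -0.07, cholesterol synthesis genes -0.28, transfer RNA synthetases 0.00 and endoplasmic reticulum genes 0.09. Hsd17b7, an enzyme of cholesterol synthesis, read 9.91, 9.96, 9.87 and 11.76 against 11.53, 11.75, 11.54, 11.32 and 11.33, lower on arrays 1 to 3, and Eno2, an enolase of neurons, 8.34, 9.36, 8.99 and 7.74 against 7.55 ± 0.36, higher on arrays 1 to 3.

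All genes were also grouped by the stem of their symbol, without reference to tissue. There were 174 stems with at least 8 tested genes, covering 3296 genes, and 135 of them had a median difference within 0.2 of 0. The lowest medians belonged to Psg (-4.23, 8 of 8 lower), Prl (-3.25, 11 of 11), Myl (-2.0, 6 of 9) and Ceacam (-1.93, 7 of 8). Next came Krt (-0.68), Serpinb (-0.53), the nuclear pore family Nup (-0.28, 14 of 15 lower) and the DNA repair family Rad (-0.20). The Nup and Rad families were low on arrays 2 and 3 only, as the cell cycle list was. Nup133 read 8.93, 8.49, 8.01 and 8.57 against 9.0 ± 0.28 (SD, n = 5), and Rad51c 8.14, 6.60, 5.91 and 7.38 against 7.46 ± 0.14. The Myl family held heart, skeletal and smooth muscle light chains at once, and its level was -0.21, -2.95, -2.75 and 0.28 on arrays 1 to 4.

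The highest medians belonged to proteases and to lectin-like receptors. Kallikreins, the Klk family of secreted serine proteases, had a median of 0.94 and stood at 0.06, 1.72, 2.0 and -0.29 on arrays 1 to 4. Klk1b21 read 7.28, 8.54, 8.21 and 5.68 against 5.66, 6.55, 5.67, 6.54 and 6.07, and Klk1b24 6.79, 8.38, 8.28 and 5.33 against 5.79 ± 0.48 (SD, n = 5). Klk7 differed in that array 4 was its highest, at 4.33, 6.13, 6.10 and 7.60 against 7.55 ± 0.23. The Klk1b genes are close copies of each other, so their probes may share signal. C-type lectin receptors of myeloid cells, the Clec family, had a median of 0.55 with 13 of 14 higher, and Clec4d read 4.71, 6.88, 7.16 and 5.38 against 4.86 ± 0.14. Then came the metalloprotease families Adam (0.52), Mmp (0.44) and Adamts (0.40), the chemokines Ccl (0.48, 8 of 9 higher), Prss (0.42) and Pik (0.35). Mmp13, collagenase 3, read 4.57, 8.14, 7.88 and 6.26 against 5.59, 5.35, 5.21, 5.68 and 5.30, and Ccl4, a chemokine for lymphocytes and monocytes, 7.0, 9.31, 9.61 and 7.24 against 6.66 ± 0.34. The Adam median became 0.96, 0.19, 0.25 and 0.65 without arrays 1, 2, 3 and 4 in turn, and the Mmp median 0.39, 0.24, 0.27 and 0.77 without arrays 1, 2, 3 and 4 in turn. With equal array medians the Adamts median was 0.02 (5 of 9 higher) and that of Pik 0.03, and without background correction Ccl was 0.14, Prss 0.13 and Clec 0.18. Of these 8 families, none had a median below 0 under either scaling. Adamts was the one of these 8 families in which array 1 stood highest, at 0.71. The 2 largest families lay near 0, with medians of 0.06 over 197 Zfp zinc finger genes and 0.01 over 209 Slc transporter genes.

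**Figure D5:**
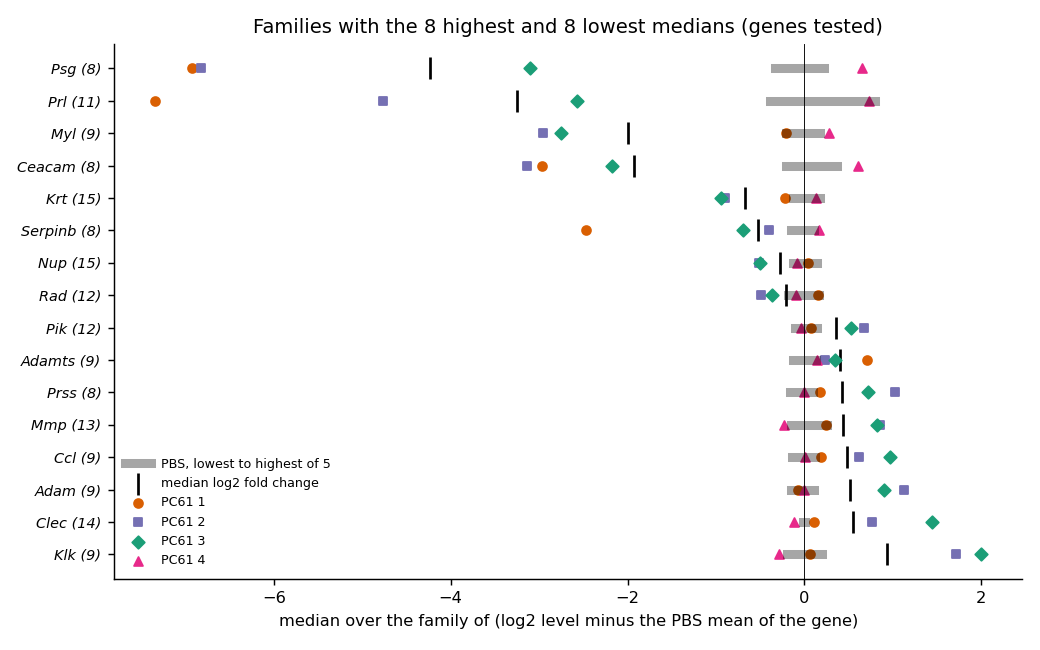
Median level relative to the PBS mean (horizontal axis, log2) of the 8 families with the lowest and the 8 with the highest median difference, on each PC61 array (coloured symbols), with the span of the 5 PBS arrays (grey bar) and the median log2 fold change (black tick). Psg and Prl lie several units below on arrays 1 to 3 and slightly above 0 on array 4, and the families at the bottom of the plot are above 0 mainly on arrays 2 and 3.

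PC61 array 4 differed from PBS in few genes. The only one more than 1 unit above the PBS range was Clec4f, a lectin of liver macrophages, at 4.36, 4.34, 4.88 and 6.69 against 5.61, 5.61, 5.23, 5.59 and 5.54. The 33 below the range included Myh11, Col6a2 and Igfbp6 as described above. The furthest below were Hoxc10, Sult1d1, a sulphotransferase (8.09, 9.16, 9.74 and 5.55 against 7.60 ± 0.11, SD, n = 5), and Prss29, an implantation serine protease (9.52, 9.20, 9.70 and 5.02 against 6.82, 8.08, 6.81, 8.09 and 7.34). Myh11, Col6a2, Sult1d1 and Prss29 were above every PBS value on arrays 1 to 3, and Igfbp6 was on arrays 2 and 3. The trophoblast list was above the highest PBS value on array 4 at 0.57, while the smooth muscle list was below the lowest at -0.39, the reverse of arrays 1 to 3.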

How the data were processed

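Uterus RNA was labelled as biotin cRNA with the Ambion MessageAmp kit, per the labels' protocols, and hybridised to Illumina mouse arrays. The deposited scanner table holds, per the file headers, an intensity and a detection p-value per probe on every array, and its deposited intensity values were not normalised. The authors' deposited series matrix holds log2 values of 16948 probes, and these values were used only as an alternative. Gene symbols came from an annotation of the series matrix probes. Of the 45281 scanner probes, 29807 had no symbol here, so their genes could not be tested by name. The software behind both tables is not given in the sources used here.

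Intensities were processed with neqc in limma 3.58.1 under R 4.3.3 (normexp background inferred from detection p-values, offset 16, quantile normalisation, log2). A probe was kept if at least 4 of 14 arrays detected it at p under 0.01. Each gene was taken from its brightest kept probe, 3547 genes had several, and 5618 kept probes had no symbol here. Differences were tested over all 14 arrays with lmFit on 3 group means and eBayes (11 residual and 3.36 prior degrees of freedom), two-sided, with Benjamini-Hochberg adjustment over 10478 genes. The median SE was 0.23, and the number of arrays limits the precision. Every SE and p-value assumes equal spread in the groups, which the PC61 arrays did not have. The fit was tested on simulated data in which PC61 arrays varied as the PBS arrays did. That test does not show how the fit behaves when PC61 arrays differ from each other as they did here.

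A probe detected on no array of a group has only a bound, taken against the lowest detected signal of those arrays. It is given only where every array of the other group detected the probe. The files give no slide or scan batch. Families are stems of at least 8 genes. Named genes were the 10 with the widest gap in each direction, the 6 furthest outside PBS on each array, the 4 largest differences in each list among members detected on every array of a group, the 3 largest in each of the 16 families with extreme medians, and Foxp3 and Il2ra, leaving out predicted and clone names. Il2ra has no probe named here. Cell type markers were a separate list. Other genes outside the rule were added after their values were seen. The members and lists were chosen with earlier results of these data known. Alternatives covered normalisation, filter, source, probe choice, arrays left out, replicate block and variance model. Promoters were taken from RefSeq on GRCm38.p6.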

Additional observations from a re-analysis of the deposited data

Results flagged for a closer look

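Within each group of arrays, the gap between the highest or lowest array and its nearest neighbour was divided by the range of the group and set against Dixon's limit for 4 or 5 arrays. Chance passes about 1 in 20 groups. Of 29 lists, 1 passed among the PC61 arrays and 1 among the PBS arrays. The embryonic nervous system list had PC61 array 3 apart as the lowest, with a ratio of 0.896. The glycolysis and hypoxia list had PBS array 1 apart as the highest, with a ratio of 0.831. 

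Of 171 genes named in the text, 26 passed among the PC61 arrays and 7 among the PBS arrays. Genes were named for their differences between arrays, so the share among them is not a rate for all genes. PC61 array 1 was the highest and stood apart for Hoxd12 (0.843) and Twist2 (0.849). PC61 array 1 was the lowest and stood apart for Angpt2 (0.932), Cdh5 (0.882), Ddx58 (0.830), Gzmd (0.939), Gzme (0.848), Gzmg (0.917), Prl8a2 (0.992) and Rsad2 (0.860). PC61 array 2 was the lowest and stood apart for Unc5b (0.841). PC61 array 4 was the highest and stood apart for Cubn (0.871), Hsd17b7 (0.956), Myh6 (0.863), Myl2 (0.960), Myl3 (0.893), Myl7 (0.942), Nppa (0.885) and Synb (0.954). PC61 array 4 was the lowest and stood apart for Ccnd1 (0.842), Dpt (0.888), Gabrg3 (0.944), Osr2 (0.833), Prss29 (0.892), Serpinf1 (0.957) and Tagln (0.855). Of the genes for which array 4 was the highest, Cubn, Myh6, Myl2, Myl3, Myl7 and Synb were detected on that PC61 array alone. Among PBS arrays, array 1 was the lowest for Spint1 (0.746). Among PBS arrays, array 2 was the highest for Dlx1 (0.766) and Oas2 (0.713). Among PBS arrays, array 3 was the highest for Peg3 (0.730). Among PBS arrays, array 3 was the lowest for Clec4f (0.831). Among PBS arrays, array 4 was the highest for Lmod1 (0.772). Among PBS arrays, array 5 was the highest for Eomes (0.717).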

How the results depend on the processing

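With 4 arrays against 5, and PC61 arrays that differ from each other, group tests depend on which arrays enter. The count past an adjusted p of 0.05 by limma was 0 over all arrays (1621 genes at an unadjusted p under 0.05) and in each alternative except 4: 303 with equal array medians (all lower), 4027 with array weights, 2 without PC61 array 1 and 1529 without PC61 array 4. Leaving out each array in turn gave counts of 0 to 1529. Genes whose groups do not overlap then numbered 134 to 1089 higher and 106 to 864 lower, against 106 and 84 over all arrays, and with equal medians 18 higher and 1543 lower. Genes more than 1 unit outside the PBS range were fewer without background correction: 26 above and 274 below on array 1, 336 and 288 on array 2, 386 and 281 on array 3, 0 and 12 on array 4. The series matrix gave 27 and 270, 336 and 282, 382 and 277, and 0 and 12. Restricting to probes detected on all 9 pregnant arrays gave 66 above and 282 below on array 1, 305 below on array 2, 340 below on array 3 and 0 above on array 4. Equal medians gave 6 above and 1103 below on array 1 and 0 above and 117 below on array 4. Without 1 PBS array, counts above ranged over 104 to 173 on array 1 and 1 to 102 on array 4, and counts below on array 4 over 34 to 50. The cholesterol synthesis median became -0.15 without background correction and -0.15 in the series matrix. With equal medians, which moved the median of all genes to -0.30, list medians became -0.60 for cholesterol synthesis, -0.16 for endothelium, -0.22 for cytosolic ribosome, -0.41 for mitochondrial ribosome, -0.31 for oxidative phosphorylation, -0.36 for proteasome, -0.31 for transfer RNA synthetases, -0.25 for endoplasmic reticulum and -0.39 for glycolysis. List medians that crossed 0 with 1 array left out were natural killer cell (-0.02 without PC61 array 2), nervous system (0.05 without PC61 array 3), glycolysis (0.01 without PC61 array 1) and, at medians near 0, Hox, adipose, cytosolic ribosome, transfer RNA synthetases and endoplasmic reticulum. With probes detected on all 9 pregnant arrays, Hox (0.08) and adipose (0.12) crossed too. The cause of these differences was not tested. The Foxp3 difference changed sign, to 0.047, without PC61 array 2, and ranged from -0.237 to 0.047 as arrays were left out. Of 336 other values for the 18 genes with printed differences, 46 passed the threshold where the reported one did not: 17 without PC61 array 4, 17 with array weights and 12 with equal medians. The replicate block gave 0 genes past the threshold, with a lowest adjusted p of 0.180. Deviations of same-numbered arrays from their group means had correlations of -0.15, -0.04, 0.09 and -0.18 for numbers 1 to 4. Only for number 3 was the PBS array of the same number the best match. The labels do not say whether the numbers pair the samples, and these few correlations cannot decide it. Signals under the detection limit of 5.00 to 5.55 set a floor to how low a gene can read.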

Other observations

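Levels below are log2 normalised intensity. Several genes far outside the PBS range belong to none of the lists. Slc13a4, a sulphate transporter of placenta, read 6.52, 5.59, 5.54 and 11.15 on PC61 arrays 1 to 4 against 10.94, 11.17, 11.01, 11.55 and 11.28 on the PBS arrays, and was low on arrays 1 to 3 alike. Ripor3 read 4.61, 8.72, 8.52 and 5.29 against 5.49 ± 0.32 (SD, n = 5) and Cck, the peptide cholecystokinin, 4.57, 8.17, 7.76 and 5.28 against 5.08 ± 0.25. Both were above every PBS value on arrays 2 and 3 and below on array 1. Cck read 4.42 ± 0.20 in non-pregnant uterus, so its value on arrays 2 and 3 was above both other groups.

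Gatm, which makes the creatine precursor guanidinoacetate, read 4.57, 9.95, 9.58 and 7.22 against 7.24, 7.39, 6.85, 6.62 and 7.57, and Htra3, a serine protease of decidua, 10.93, 14.60, 14.22 and 12.49 against 12.83 ± 0.40 (SD, n = 5). They are 2 of the 67 genes that were more than 1 log2 unit below the PBS range on array 1 and as far above it on arrays 2 and 3. They belong to the imprinted and decidual lists and were picked after their values were seen.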
